A study of Mus musculus with 6 samples.

Results

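The genes described here are 9 genes that make and remove superoxide and peroxide in phagocytes. They were taken by symbol from a given list, after Ensembl gene identifiers had been matched to mouse symbols, and all 9 were found among the 19973 genes of the deposited table. Of these, 5 encode parts of the phagocyte NADPH oxidase (Cybb, Cyba, Ncf1, Ncf4 and Rac2), 2 encode superoxide dismutases (Sod1 and Sod2) and 2 encode glutathione peroxidases (Gpx1 and Gpx4). Each of the 9 exceeded the filter on low values, a mean of at least 10 normalized counts over the 6 libraries, and the lowest read number of any of them in a library was 668, for Gpx4.

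RNA came from peritoneal macrophages of male C57BL/6 mice, an inbred laboratory strain, aged 18 months (old, 3 libraries) or 2 months (young, 3 libraries). Both ages had received 200 µg of zymosan A, yeast cell wall material that provokes peritonitis, into the peritoneal cavity, and lavage followed 72 hours later. The harvested cells were cultured overnight in medium containing L-cell medium, those that had not attached were washed off, and the rest were given vehicle (PBS) for 6 hours. No group without zymosan and no group given resolvin D2 was analysed here, so every value below describes macrophage cultures from an inflamed peritoneum. Markers of other cells were also found in these cultures, as given below. The design text speaks of 3 mice per group and of sequencing in triplicate without tying libraries to animals. The p-values given below therefore rest on spread among libraries that could in part be technical.

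The phagocyte oxidase moves electrons from NADPH in the cytosol across the membrane onto oxygen, which gives superoxide on the other side. Its membrane core is a flavocytochrome of the catalytic subunit (Cybb, also called NOX2) and a small partner (Cyba). On stimulation the organizer protein (Ncf1), a phosphoinositide-binding subunit (Ncf4) and a Rac GTPase (Rac2 or Rac1) dock with other proteins from the cytosol and switch it on. Superoxide dismutases turn superoxide into hydrogen peroxide, in the cytosol by the copper and zinc enzyme Sod1 and in mitochondria by the manganese enzyme Sod2. Glutathione peroxidases then reduce hydrogen peroxide (Gpx1) or peroxides of membrane lipids (Gpx4) at the cost of glutathione.

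Promoter sequences are shown for 3 oxidase genes, of which Cybb and Cyba passed the test of age below and Ncf1 did not, and for both dismutases. They are RefSeq sequences on GRCm38.p6, from 250 bases before to 50 bases after the start site, read 5′ to 3′ on the strand of the gene. RefSeq promoters were matched for 7 of the 9 genes, and those of Ncf4 and Rac2 were not used here. Capitals mark 4 searched motifs on either strand. They are GAGGAA, a spelling of the site bound by ETS factors such as PU.1, the CCAAT box, the GC box, spelled GGGCGG, and the core of the antioxidant response element, spelled TGACNNNGC. Shorter or other spellings of ETS sites were not searched, and the windows may hold them.
Cybb, chrX:9469275-9469574, minus strand: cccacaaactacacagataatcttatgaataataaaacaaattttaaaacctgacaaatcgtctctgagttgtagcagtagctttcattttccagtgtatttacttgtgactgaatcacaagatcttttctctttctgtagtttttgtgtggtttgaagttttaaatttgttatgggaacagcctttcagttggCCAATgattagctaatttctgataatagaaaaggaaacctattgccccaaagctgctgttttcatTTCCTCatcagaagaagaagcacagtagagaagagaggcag
Cyba, chr8:122432891-122433190, minus strand: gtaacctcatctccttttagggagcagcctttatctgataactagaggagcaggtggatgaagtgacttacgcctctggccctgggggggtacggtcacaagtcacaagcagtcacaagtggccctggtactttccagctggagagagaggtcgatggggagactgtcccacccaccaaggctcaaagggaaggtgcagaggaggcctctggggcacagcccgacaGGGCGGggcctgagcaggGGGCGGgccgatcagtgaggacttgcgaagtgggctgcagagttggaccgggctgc
Ncf1, chr5:134229576-134229875, minus strand: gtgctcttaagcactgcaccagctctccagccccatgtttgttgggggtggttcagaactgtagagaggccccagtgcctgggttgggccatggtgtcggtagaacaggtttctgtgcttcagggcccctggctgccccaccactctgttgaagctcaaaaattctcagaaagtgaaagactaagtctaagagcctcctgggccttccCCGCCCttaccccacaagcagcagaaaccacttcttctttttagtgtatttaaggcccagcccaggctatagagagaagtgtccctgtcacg
Sod1, chr16:90220512-90220811, plus strand: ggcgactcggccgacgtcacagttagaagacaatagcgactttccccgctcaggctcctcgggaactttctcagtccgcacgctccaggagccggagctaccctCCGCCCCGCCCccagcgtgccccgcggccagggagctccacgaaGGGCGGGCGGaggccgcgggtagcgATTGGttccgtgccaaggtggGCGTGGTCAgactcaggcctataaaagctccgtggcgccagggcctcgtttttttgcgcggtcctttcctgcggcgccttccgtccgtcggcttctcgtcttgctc
Sod2, chr17:13007589-13007888, plus strand: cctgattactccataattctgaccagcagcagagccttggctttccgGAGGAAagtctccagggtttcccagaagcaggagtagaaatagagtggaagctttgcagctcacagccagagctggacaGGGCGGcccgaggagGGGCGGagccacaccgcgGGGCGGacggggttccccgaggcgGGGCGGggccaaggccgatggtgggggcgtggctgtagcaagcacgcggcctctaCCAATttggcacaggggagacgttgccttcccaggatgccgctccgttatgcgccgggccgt
Cybb held 1 GAGGAA, on the strand opposite the gene between bases 10 and 15 after the start, and 1 CCAAT box. Cyba held 2 GC boxes and Ncf1 held 1, and neither held the other 3 motifs as spelled here in this window. Sod2 held 4 GC boxes, 1 GAGGAA and 1 CCAAT box. Sod1 held 4 GC boxes that overlap in pairs, 1 CCAAT box and 1 antioxidant response core. Among all 32851 promoters of the same length, 28.3% held GAGGAA, 37.4% the CCAAT box, 35.7% the GC box and 12.4% the antioxidant response core. These matches describe the letters of the windows only.

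Gpx1 and Gpx4 are selenoproteins, in which an in-frame TGA codon is read as selenocysteine, the residue that reacts with the peroxide. The coding stretches around that codon are shown because the levels of both genes are read below beside the genes of selenocysteine insertion. They come from GENCODE M21 transcripts, and capitals mark the TGA codon.
Gpx1: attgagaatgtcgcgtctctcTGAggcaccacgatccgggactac
Gpx4: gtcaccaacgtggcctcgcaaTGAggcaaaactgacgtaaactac
The codon was number 47 of 201 in Gpx1 and number 73 of 197 in Gpx4, counted from the start codon of the principal transcript, and each coding sequence held 1 such codon before its stop.

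Recovered read totals were between 8163000 and 13008000 per library. Pairs of libraries of the same age differed by 1.49 to 4.69 times the median chi-square that sampling noise gives, so each was counted as 1 sample. Ages were separated along a first principal component (71.5% of variance), while a second (18.2%) had old replicate 3 and young replicate 3 at its opposite ends. The 9 genes moved along this second difference. Old replicate 3 was the lowest old library in 9 of 9 (48.0% of all tested genes) and young replicate 3 the highest young library in 9 of 9 (45.8% of all tested genes), and both held together in all 9, against 32.6% of all tested genes. Values without both libraries numbered 3 are therefore given beside the result of each of the 9 genes. For the pathway lists with more than 1 tested gene, at least the number of higher genes is given in the same way. Because of this pattern, leaving out both could only raise the old minus young value of each of the 9 genes. For these genes such values are no separate check. Of 8 macrophage markers 6 were higher in old and 0 lower, against 17.9% and 17.6% of all tested genes. Their log2 fold changes ran from 0.26 for Csf1r to 0.89 for Cd14, with a median of 0.38, and Adgre1 and Lyz2 did not pass. Csf1r had 19751 ± 539 normalized counts in the old and 16537 ± 819 in young (n = 3 each, SD). All 9 tested of 10 B cell markers and all 5 tested of 8 mast cell markers were higher in old. Summed B cell markers were 1659 to 3293 normalized counts in the old and 125 to 129 in young, and summed mast cell markers were 556 to 623 and 46.3 to 71.0. T and NK cell markers summed to 58.4 to 80.3 in old and 6.76 to 12.1 in young, and 3 analysed eosinophil markers to 30.5 to 45.3 and 8.05 to 17.5. The eosinophil difference lay mostly in Il5ra, with a mean of 26.4 in old and 1.55 in young. Siglecf (4.74 and 4.47) and Ccr3 (8.41 and 5.33) overlapped between the ages and were below the filter. For neutrophils, 7 of 13 markers were matched by symbol, with sums of 1349 to 1483 in old and 945 to 1048 in young. Of the 3 tested, S100a8 was 2.76-fold and Csf3r 1.62-fold higher in old, and Mmp9 was 1.44-fold higher in young. The granule genes Camp and Ltf stood at 0 to 2 reads over the libraries of an age. Oxidase genes are expressed in B cells, neutrophils and eosinophils as well as in macrophages, and the part of these cells in the values below was not tested. In RNA of a whole culture, a change in the number of expressing cells and a change in RNA per cell cannot be told apart.

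In RNA of the old cultures, 7 of the 9 genes rose, 0 fell and 2, Ncf1 and Rac2, did not pass the test (limma on log2(normalized count + 1), Benjamini-Hochberg adjusted p under 0.05 over 11795 genes). Over all tested genes 35.5% passed, 17.9% higher and 17.6% lower in old. The median log2 fold change, old minus young, was 0.47 for the 9 genes and 0.00014 for all tested genes. In 8 of the 9 genes every old library lay above every young one, against 24.0% of all tested genes. The point estimates ran from 1.02 for Cybb, in the membrane core of the oxidase, to 0.28 for Gpx1 among the genes that passed. The number of passing genes, in either direction, was 6 to 8 over 18 alternative analyses. It was 8 without both libraries numbered 3, where 59.0% of all tested genes passed. Under quantile normalization it was also 8, with Ncf1 among them as lower in old.

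**Figure D1:**
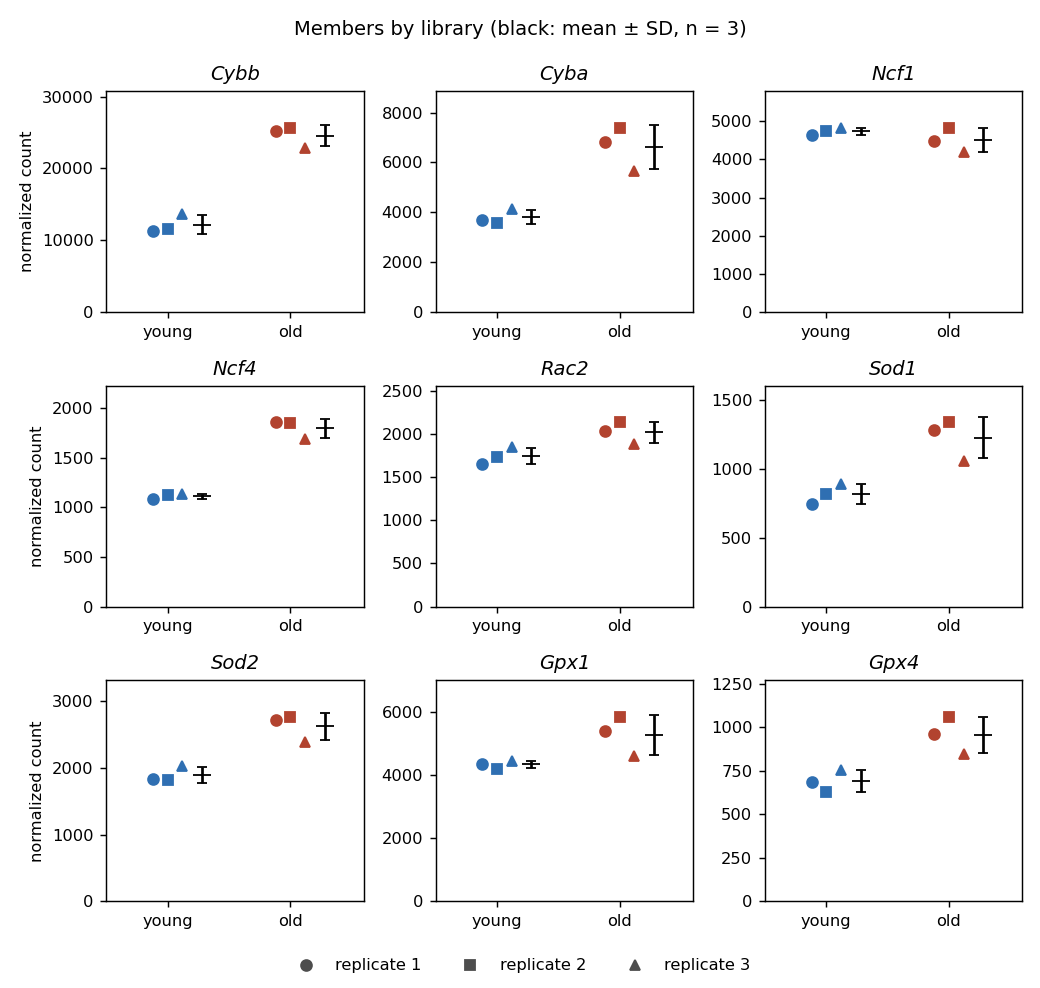
Normalized counts of the 9 genes in each library, with young libraries in blue, old libraries in red, a marker shape for each replicate number and the mean ± SD in black. Old and young points are apart for every gene except Ncf1, whose old libraries (4185 to 4820) and young libraries (4640 to 4831) overlap.

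Cybb encodes the catalytic subunit that carries the heme and flavin groups (chromosome X, 9435252 to 9487771, minus strand). It had 25157, 25649 and 22861 normalized counts in the old libraries and 11240, 11531 and 13701 in the young ones. The lowest old library lay far above the highest young one. The log2 fold change was 1.02 ± 0.10 (SE; adjusted p = 5.9e-05 by limma), a 2.02-fold difference of means. Of all tested genes 96.0% had a lower fold change. Under quantile normalization the log2 value was 0.68, and without both libraries numbered 3 it was 1.16.

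Cyba encodes the partner that stabilizes the catalytic subunit and offers the docking site for the organizer (chromosome 8, 122424776 to 122432930, minus strand). Its old libraries held 6821, 7393 and 5645 normalized counts, and its young libraries 3698, 3584 and 4142. The ages did not overlap, although old replicate 3 fell well below the other old libraries. Cyba rose by a log2 fold change of 0.79 ± 0.11 (SE; adjusted p = 0.000379 by limma), 1.74-fold. The value was 0.96 without both libraries numbered 3.

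Of the cytosolic subunits, Ncf4 passed the test and Ncf1 and Rac2 did not. Ncf4, the subunit that binds phosphatidylinositol 3-phosphate on phagosomes (chromosome 15, 78244801 to 78262580, plus strand), had 1856, 1851 and 1689 normalized counts in the old and 1082, 1120 and 1134 in young libraries. The young libraries lay close together, and all old ones were above them. Ncf4 rose by 0.69 ± 0.07 on the log2 scale (SE; adjusted p = 4.5e-05 by limma), 1.62-fold, and by 0.75 without both libraries numbered 3. Ncf1, the organizer that is phosphorylated to start assembly (chromosome 5, 134220053 to 134229625, minus strand), had 4497, 4820 and 4185 normalized counts in the old and 4640, 4743 and 4831 in young libraries. Its ranges overlapped, with old replicate 2 among the young values. The log2 fold change of Ncf1 was -0.08 ± 0.07 (SE; adjusted p = 0.442 by limma). Without both libraries numbered 3 it was -0.01 (adjusted p = 0.871 by limma). Under quantile normalization it was -0.20 and passed (adjusted p = 0.00868). Exons of Ncf1 share 408 bases with Gtf2ird2 on the other strand, which had 43.8 ± 7.13 normalized counts in the old and 54.2 ± 1.66 in young libraries (n = 3 each, SD), and without knowledge of strand these reads cannot be told apart.

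Rac2 is the Rac GTPase of blood cells (chromosome 15, 78559167 to 78572783, minus strand). Its libraries held 2030, 2131 and 1885 normalized counts in the old and 1655, 1734 and 1842 in young. The ages were apart, but the gap between old replicate 3 and young replicate 3 was narrow. The log2 fold change was 0.21 ± 0.07 (SE) and missed the threshold (limma adjusted p = 0.0516). On recovered reads it passed with edgeR (adjusted p = 0.0485, where 36.7% of all genes passed) and with DESeq2 (adjusted p = 0.0321, 31.7% of all genes). In all it passed in 8 of 18 alternatives, also without old replicate 3 (limma adjusted p = 0.00969) or young replicate 3 (0.0405), with adjusted p-values from 9.21e-05 to 0.187. The lowest of these came without both libraries numbered 3, where the log2 fold change was 0.30.

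Ratios between the RNA of the oxidase genes were taken within each library. Protein was not analysed here, so they do not give the balance of the subunits themselves. The ratio of Cybb to Ncf1 normalized counts was 5.59, 5.32 and 5.46 in old libraries and 2.42, 2.43 and 2.84 in young ones. The ages differed 2.14-fold in this ratio. Cyba relative to Ncf1 was 1.83-fold, Ncf4 relative to Ncf1 1.70-fold and Rac2 relative to Ncf1 1.22-fold higher in old, each without overlap. As Ncf1 itself hardly differed by age, these ratios largely repeat the fold changes of the single genes. Among all tested genes taken singly, 47.5% did not overlap between the ages in either direction, and no such share was computed for ratios. The ratio of Cyba to Ncf4 did overlap, at 3.34 to 3.99 in old and 3.20 to 3.65 in young libraries (2-sided exact permutation p = 0.4). For the other 9 of the 10 pairs of oxidase genes the 2-sided exact permutation p was 0.1, the smallest that 3 against 3 can give, and 0.12 after Benjamini-Hochberg adjustment over the 12 ratios computed, which leaves no pair below 0.05.

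**Figure D2:**
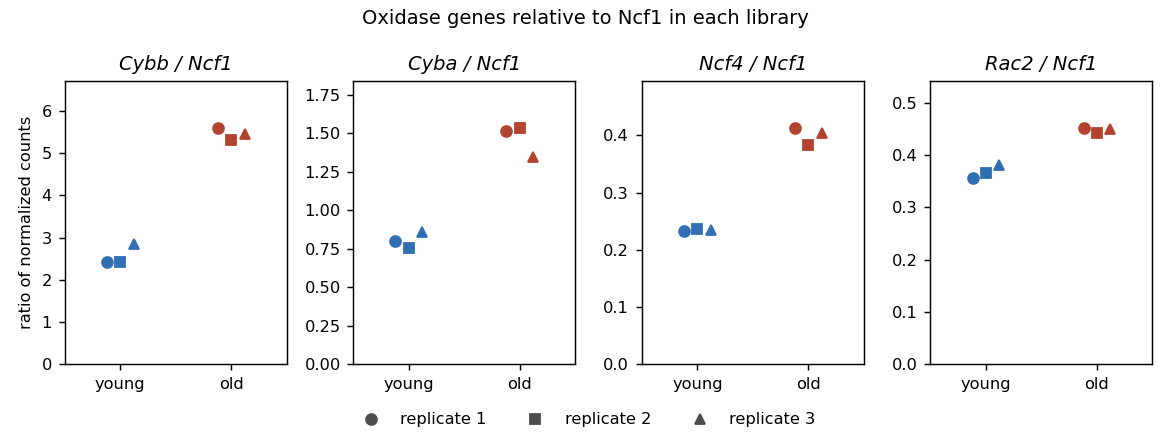
Ratio of the normalized counts of Cybb, Cyba, Ncf4 and Rac2 to those of Ncf1 in each library, with young in blue, old in red and a marker shape for each replicate number. The ratio of Cybb to Ncf1 is at least 5.32 in old and at most 2.84 in young libraries, and the shift is smallest for Rac2.

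Both superoxide dismutases rose. Sod1, the cytosolic enzyme (chromosome 16, 90220754 to 90226329, plus strand), had 1286, 1338 and 1057 normalized counts in the old and 748, 820 and 893 in young libraries. No old library fell into the young range. The log2 fold change was 0.58 ± 0.10 (SE; adjusted p = 0.00214 by limma), 1.495-fold. Sod2, the mitochondrial enzyme, whose gene is a common target of inflammatory signalling (chromosome 17, 13006846 to 13040063, plus strand), had 2711, 2757 and 2381 normalized counts in the old and 1837, 1808 and 2029 in young libraries. Here too the ages were apart, with old replicate 3 the lowest of the old and young replicate 3 the highest of the young libraries. Sod2 rose by 0.47 ± 0.08 on the log2 scale (SE; adjusted p = 0.00166 by limma), 1.38-fold. The ratio of Sod1 to Sod2 was 0.468 ± 0.0215 in old and 0.434 ± 0.0236 in young libraries (n = 3 each, SD), with overlap (2-sided exact permutation p = 0.2). Without both libraries numbered 3 the log2 fold changes were 0.74 for Sod1 and 0.58 for Sod2.

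Both glutathione peroxidases passed, Gpx1 narrowly. Gpx4, which reduces lipid peroxides in membranes and restrains ferroptosis (chromosome 10, 80047166 to 80056439, plus strand), had 960, 1058 and 848 normalized counts in the old and 688, 626 and 755 in young libraries. Every old value was above every young one. The log2 fold change was 0.47 ± 0.10 (SE; adjusted p = 0.00567 by limma), 1.38-fold, and 0.62 on the log2 scale without both libraries numbered 3. The annotation holds a processed copy, Gpx4-ps2, with a mean of 25.3 normalized counts in the old and 16.1 in young, and reads of near-identical copies may be split between such genes.

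Gpx1, the abundant peroxidase of cytosol and mitochondria (chromosome 9, 108338903 to 108340343, plus strand), had 5399, 5851 and 4614 normalized counts in the old and 4374, 4215 and 4450 in young libraries. Old replicate 3 lay just above the highest young library. The log2 fold change was 0.28 ± 0.09 (SE), 1.22-fold, and passed narrowly (limma adjusted p = 0.0410). This call was lost under 10 of 18 alternatives, with adjusted p-values from 2.26e-06 to 0.152. Leaving out a single library ended it in every case but old replicate 3, at 0.138 without old replicate 1, 0.152 without old replicate 2, 0.0970 without young replicate 1, 0.147 without young replicate 2 and 0.0614 without young replicate 3. Without old replicate 3 the log2 value was 0.37, without both libraries numbered 3 it was 0.39, and under quantile normalization it was 0.15 (adjusted p = 0.0789). The ratio of Gpx1 to Gpx4 was lower in old, at 5.53 ± 0.0939 against 6.33 ± 0.420 (n = 3 each, SD; 2-sided exact permutation p = 0.1, the smallest possible).

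**Figure D3:**
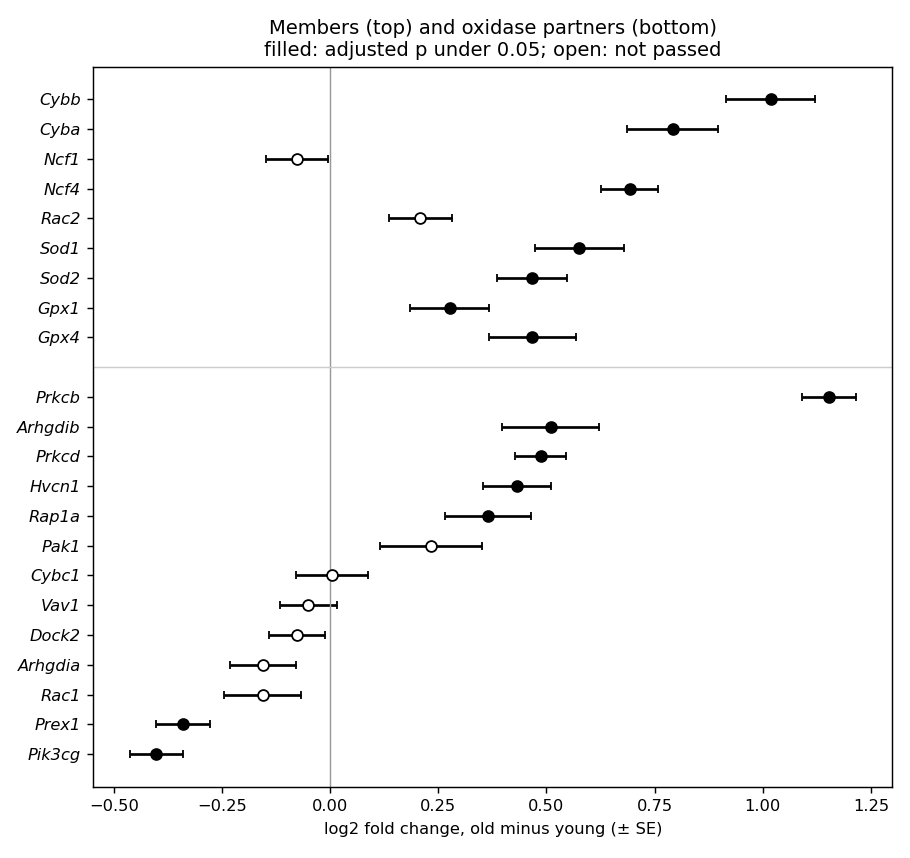
Log2 fold change, old minus young, with its SE for the 9 genes (top) and for 13 of the 14 partners and regulators of the oxidase (bottom), filled where the adjusted p was under 0.05. Cybb at 1.02 leads the 9 genes and Prkcb at 1.15 the partners, while Ncf1, Rac2 and 6 partners are open.

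Levels were compared between genes only as normalized counts per kilobase of the principal GENCODE transcript. On this scale Cyba was highest at both ages, with 8898 ± 1198 in old and 5118 ± 396 in young libraries (n = 3 each, SD). Gpx1 came next in young, at 4054 ± 112, and Cybb the third, at 2558 ± 283. In old libraries Cybb, at 5167 ± 313, and Gpx1, at 4933 ± 584, overlapped and could not be ordered. Ncf1 had 1654 ± 117 in old and 1741 ± 35.1 in young libraries per kilobase. Sod1 had 1914 ± 233 and 1280 ± 113, Ncf4 1229 ± 64.9 and 760 ± 18.3, and Gpx4 996 ± 109 and 719 ± 67.3. In young libraries Ncf4 and Gpx4 overlapped. Rac2, with 663 ± 40.7 in old and 574 ± 31.0 in young, and Sod2, with 446 ± 35.0 and 323 ± 20.5, were lowest. Sod1 and Ncf1 overlapped in old libraries. Divided by the length of all annotated exons in place of the principal transcript (3970 against 641 bases for Sod1), Sod1 ranked 8 of 9 and not 4 in old, and Rac2 ranked 6 and not 8 in old and 5 and not 8 in young. Cyba stayed first and Sod2 last. Sod2 had the greatest length of the 9 genes by either measure (5861 and 10008 bases), and its place was not tested with a shorter one.

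**Figure D4:**
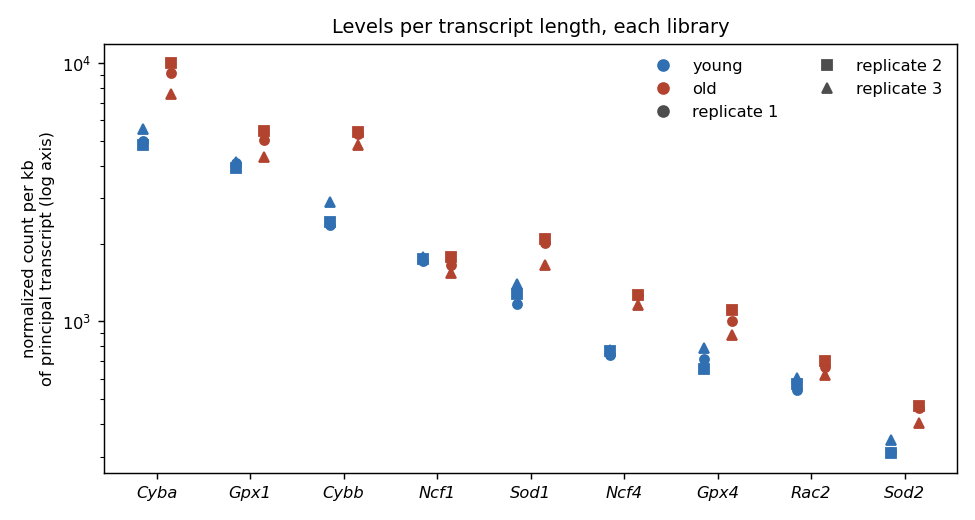
Normalized counts per kilobase of the principal transcript, on a log axis, for each library and gene, ordered by the young mean. Cyba is highest and Sod2 lowest at both ages, and Cybb moves from the level of 2365 to 2883 in young libraries to 4811 to 5397 in old ones.

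Of 14 partners and regulators of the oxidase, all tested, 6 were higher and 2 lower in old and 6 did not pass, with a median log2 fold change of 0.12. Over all tested genes, 17.9% were higher and 17.6% lower, and the counts of this and the following lists stand beside those shares. Without both libraries numbered 3, where 59.0% of all genes passed, 7 partners were higher and 3 lower. Prkcb, a protein kinase C that phosphorylates the organizer, had 2577 ± 63.7 normalized counts in the old and 1159 ± 45.9 in young libraries (n = 3 each, SD), 2.22-fold higher in old (limma adjusted p = 1.2e-06). Prkcd, another kinase of this family, was 1.40-fold and the voltage-gated proton channel gene Hvcn1, which offsets the charge that the oxidase moves, 1.35-fold higher. Arhgdib, which keeps Rac proteins in the cytosol, was 1.42-fold and the small GTPase gene Rap1a 1.29-fold higher.

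Of the partners, 2 that act in signalling to Rac were lower. Pik3cg, a phosphoinositide 3-kinase of leukocytes, had 1967 ± 35.2 normalized counts in the old and 2600 ± 87.7 in young libraries (n = 3 each, SD; limma adjusted p = 0.000818), 1.32-fold higher in young. Prex1, a Rac exchange factor that answers to its lipid product, was 1.26-fold higher in young. The exchange factor genes Vav1 (log2 fold change -0.05) and Dock2 (-0.08) did not pass, nor did Rac1 (-0.16), Arhgdia (-0.16), Pak1 (0.23) or Cybc1 (0.0046), which encodes a chaperone of the flavocytochrome. Under quantile normalization 5 partners were lower in place of 2.

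Other NADPH oxidases were near the limit of detection. Nox1 had 2 reads over the old and 1 over the young libraries, Nox3 had 2 and 1, and the organizer gene Noxo1 had 13 and 17, all below the filter, and the other 6 genes of this list were not analysed here. The extracellular dismutase gene Sod3 had 13 and 14 reads. Ccs, the chaperone that loads copper into Sod1, had 158 ± 13.3 normalized counts in the old and 124 ± 6.28 in young libraries (n = 3 each, SD; limma adjusted p = 0.0360). The call of Ccs was lost in 9 of the 18 alternatives, among them without old replicate 1, old replicate 2 or any young library. Gpx3, the secreted glutathione peroxidase, went the other way. It had 3.59, 1.71 and 2.54 normalized counts in the old and 25.1, 26.3 and 33.0 in young libraries, or 7 reads over the old and 94 over the young ones (limma adjusted p = 0.000463).

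Of 12 tested genes that remove peroxide by other routes 7 were higher and 1 lower in old (17.9% and 17.6% of all tested genes), with a median log2 fold change of 0.39. The higher genes numbered 5 without old replicate 1, old replicate 2, young replicate 1 or young replicate 2, and 8 without both libraries numbered 3. Prdx1, a peroxiredoxin, had a log2 fold change of 1.63 ± 0.13, catalase (Cat) 1.16 ± 0.09 and Prdx6, which also repairs oxidized phospholipids, 1.01 ± 0.09 (SE; limma adjusted p of 1.45e-05, 8.24e-06 and 3.8e-05). Srxn1, which restores overoxidized peroxiredoxins, was at 0.44. The lower gene was Prdx4, a peroxiredoxin of the endoplasmic reticulum, at -0.48, chosen for naming with its value in view. Among 8 tested genes of glutathione supply 5 were higher and 1 lower, as they were without both libraries numbered 3. Gsr, the reductase that regenerates glutathione, was 1.55-fold, the synthetase gene Gss 1.61-fold and Gclm, a subunit of the enzyme that starts glutathione synthesis, 1.39-fold higher in old. The lower gene was Slc3a2, part of the cystine importer, at -0.25. The count of higher genes fell to 3 without old replicate 1, old replicate 2, young replicate 1 or young replicate 2, and Slc3a2 lost its call without young replicate 2, without young replicate 3 and without old replicate 1.

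Of 6 genes of selenocysteine insertion 1 was higher and 1 lower, with and without both libraries numbered 3, a share near that over all tested genes (17.9% higher and 17.6% lower). Sephs2, which makes the selenium donor, had 950 ± 91.0 normalized counts in the old and 1798 ± 137 in young libraries (n = 3 each, SD), 1.89-fold higher in young (limma adjusted p = 4.75e-05). Trnau1ap, a partner of the selenocysteine transfer RNA, was 1.39-fold higher in old, and it did not pass without old replicate 1, old replicate 2 or young replicate 2. Among 12 other selenoproteins 2 were higher and 3 lower, with a median log2 fold change of -0.03. Selenoh, a nuclear selenoprotein, was 2.38-fold, the selenium carrier gene Selenop 1.77-fold and Selenow 1.35-fold higher in young. The higher ones were the mitochondrial Selenoo, 1.47-fold, and, named after its value was seen, the methionine sulfoxide reductase Msrb1, 1.42-fold. The higher genes numbered 4 without old replicate 3 and also without both libraries numbered 3.

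In the list of lipid peroxidation and ferroptosis 2 of 9 genes were higher and 0 lower in old, near the 17.9% higher over all tested genes. They were the ferritin genes Ftl1 (log2 fold change 0.54) and Fth1 (0.38), whose products store iron. No gene of the list passed without young replicate 2, and 1 passed without old replicate 1, old replicate 2, young replicate 1 or young replicate 3. Without both libraries numbered 3 the higher genes numbered 4. The remaining 7 genes, among them Acsl4 (0.06), which feeds polyunsaturated fatty acids into membranes, did not pass.

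**Figure D5:**
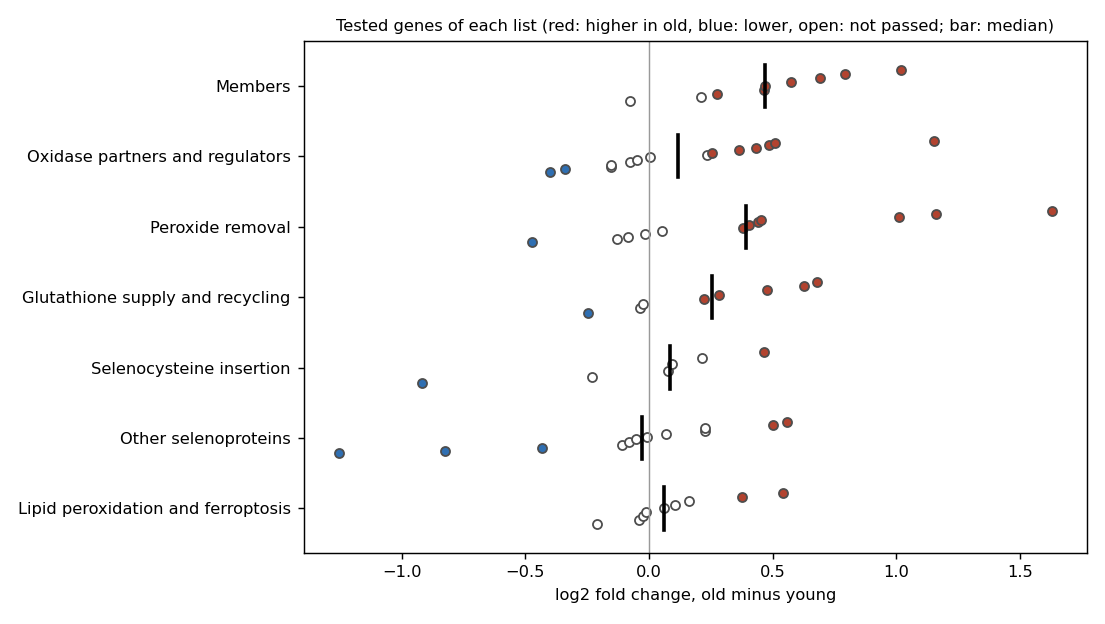
Log2 fold change, old minus young, of each tested gene in the members' group and 6 pathway lists, red where higher in old, blue where lower and open where the test was not passed, with the list median as a bar. The medians are 0.47 for the members, 0.39 for peroxide removal and -0.03 for the other selenoproteins.

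For Cybb and Sod2, the genes with the most similar pattern were sought among 9245 genes with a mean of at least 50, leaving out the 9 genes themselves, pseudogenes, TEC models and genes named only by a Gm, Rik, AC or BC clone symbol or an Ensembl identifier, by the root mean square difference of centred log2 values over the 6 libraries. Nearest to Cybb were Rab7b, a GTPase gene of late endosomes, with a difference of 0.027, AI413582 with 0.044 and Fam129a with 0.044. Rab7b had 2929 ± 165 normalized counts in the old and 1470 ± 126 in young libraries (n = 3 each, SD). Nearest to Sod2 were the lysosomal mannosidase gene Man2b1 with 0.019, Use1 with 0.022 and Ssu72 with 0.023. Man2b1 had 6879 ± 480 against 4919 ± 316 normalized counts (n = 3 each, SD). These likenesses rest on 6 libraries that share the age difference and the difference along the second component.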

How the data were processed

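RNA-seq libraries of 6 macrophage cultures were compared, 3 old and 3 young. The deposited values (unit signal) are read counts that the authors divided by a size factor per library; DESeq2 and mm10 are named in the submitters' processing notes without versions. For the aligner, the counter, the annotation and strand use, names were not given in the sources used here. Whole reads were recovered by dividing each column by its smallest positive value. In every library 100% of values came out whole within 0.01 reads. Symbols, positions and exons are from GENCODE M21 on GRCm38, the assembly that mm10 names (19917 identifiers matched a symbol, 56 did not). The main test was limma 3.58.1 in R 4.3.3 with a variance trend on log2(value + 1), which understates changes of low genes, over 11795 genes with a mean of at least 10, and 8178 were set aside. P-values were adjusted by Benjamini-Hochberg at 0.05. Folds of single genes divide mean normalized counts, and those for pairs of genes are from mean log2 ratios. The fit was also run on simulated counts, with few changed genes and no difference like that along the second component. That setting is unlike these data, so the run does not show how accurate the fit is here. Alternatives were pseudocounts of 0.5 and 5, other filters (none, or a mean of at least 50), scalings and variance models, a replicate block, each library left out, and edgeR 4.0.16 (4324 genes called) and DESeq2 1.42.0 (3743) on recovered reads. Leaving out both libraries numbered 3 was added after seeing the data. The members, lists and alternatives were chosen with earlier results of these data known. From the oxidase partners any gene could be named. From each other list up to 4 passing genes with the smallest adjusted p were named, and passing genes named beyond these are marked. Acsl4, which did not pass, and Sod3, Nox1, Nox3 and Noxo1, which were below the filter, were also named. The values of 1 partner of the oxidase, counted with its list, are not reported here.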

Additional observations from a re-analysis of the deposited data

How the results depend on the processing

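Cybb, Cyba, Ncf4, Sod1, Sod2 and Gpx4 kept their direction and their side of the threshold in all 18 alternatives, with log2 fold changes of 0.68 to 1.16, 0.61 to 0.96, 0.66 to 0.75, 0.51 to 0.74, 0.42 to 0.58 and 0.39 to 0.62. The upper end of each range came without both libraries numbered 3, which could only raise these values. With a single library left out, 6 to 8 of the 9 genes passed. Over all genes 4183 were called, 2107 higher and 2076 lower. With array quality weights 7634 were called, 3875 higher and 3759 lower, and without both libraries numbered 3 there were 6960, 3573 higher and 3387 lower. With a replicate block 2643 genes were called, 1281 higher and 1362 lower, with 6 of the 9 members (Gpx1 at an adjusted p of 0.142) and 21 in place of 33 pathway genes. Whether the replicate numbers pair libraries across the ages cannot be told from these values. The deviations of same-numbered libraries from their age means correlated at -0.38, -0.36 and -0.68 for numbers 1, 2 and 3, and no library correlated best with its own number. Deviations within an age cancel out, and old replicate 3 and young replicate 3 lay at opposite ends of the second component. These correlations therefore cannot decide whether same-numbered libraries were handled together. With a single library left out the calls ran from 2940 to 5660, and those among pathway genes from 23 to 37. In the block fit the genes of glutathione supply were 3 higher and 0 lower, and Ccs and Prdx4 did not pass. In that fit selenocysteine insertion and the list of lipid peroxidation and ferroptosis had 0 higher genes. Without the variance trend glutathione supply also had 3 higher and 0 lower. Partners lower in old numbered 4 with array quality weights, where the other selenoproteins had 4 higher, as they had without both libraries numbered 3. Peroxide removal had 2 lower under quantile normalization. Of the list of lipid peroxidation and ferroptosis 1 gene was higher without the filter or under quantile normalization, and 4 without both libraries numbered 3. Gpx3 lies below a mean of 50 and was not tested with that filter. The cause of these shifts was not tested.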
